A study of Nothobranchius furzeri with 228 samples.

Results

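The 100 most abundant transcripts of the killifish fin were selected on their measured level, as the 100 of 26739 genes in the table with the highest mean CPM (counts scaled to a common library total) over all 228 libraries of the series. All 100 were also among the 100 genes with the highest median. The rule used the level alone and gave both ages equal weight, so the ranking itself is a description. CPM are not divided by transcript length, and a rank therefore reflects the length of a transcript as well as its number of copies. At the lower edge, Nfu_g_1_017413 (rank 99) had a mean of 996 CPM and rpl14 (rank 100) 976 CPM, while rps13 and Nfu_g_1_021284 followed just outside with 969 CPM each. The tables of the study paired 72 of the 100 identifiers with a gene name, and the other 28 are given by identifier.

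Fin was sampled from 114 males of the killifish *Nothobranchius furzeri*, all of strain MZM-0410 and under normal aging, and the labels name no treatment or genetic change. The later group holds the clips taken at 20 weeks (114 libraries), and the earlier group the clips of the same fish at 10 weeks (114 libraries). Each fish was then followed to its death, which is known for all but 1 fish, at a median of 310.0 days and a range of 143 to 521 days. One strain, one sex and one tissue were sampled, and a clip holds all cell types of the fin, so that in these bulk samples fewer cells of a type and less RNA per cell cannot be told apart.

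A fin is a sheet of stratified epidermis folded over bony rays and connective tissue. Keratins form the intermediate filaments of epidermal cells and are anchored by desmosomes, actin forms the thin filaments of the cell cortex, and ribosomal proteins together with the elongation factors make up the machinery of protein synthesis. Bone and connective tissue cells secrete the matrix that carries the epidermis, including collagens and matricellular proteins such as SPARC and periostin. Messenger RNAs of these housekeeping and structural proteins are usually the most abundant of a skin-like tissue.

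Library totals ranged from 15854077 to 37764097 counts, and the lowest count of any of the 100 genes in any library was 90, so counting error was small beside the spread between fish. The labels give no batch. Animal numbers were therefore treated as 3 runs, fish 1 to 50 (n = 48), fish 51 to 84 (n = 34) and fish 85 onward (n = 32), because libraries of neighbouring numbers resembled each other. The runs also differed in lifespan, with median ages at death of 311, 217 and 409 days, so that run and lifespan are confounded, and the relations to age at death are given within runs as well. The clips at 20 and 10 weeks of 11 fish (2 of fish 1 to 50 and 9 of fish 85 onward) did not resemble each other as those of other fish did. Further, 4 libraries had a scaling factor (TMM) under 0.8, namely FC13, FC50 and FC60 at 20 weeks and FC78 at 10 weeks, and in these krt5 took 17.1 to 23.8% of counts.

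The 100 transcripts held 42.1% ± 3.86 at 20 weeks, against 42.7% ± 3.35 at 10 weeks (mean ± SD, n = 114 libraries each). Their share ranged from 32.1 to 57.6% at 20 weeks and 29.1 to 57.9% at 10 weeks, and the 2 ages overlapped over almost the whole range. Within fish the difference was -0.565 percentage points with an SD of 4.77, the share being higher at 20 weeks in 53 of 114 fish. Its parts moved more than the whole. Groups A, B and C were formed from the covariation of the transcripts over fish. The 66 transcripts of group A, with all 38 ribosomal proteins, held 15.7% ± 2.68 at 20 weeks, against 13.7% ± 1.63 at 10 weeks, and were higher at 20 weeks in 86 of 114 fish. The 9 transcripts of group B, among them SPARC, postnb and col6a3, held 1.72% ± 0.882 at 20 weeks, against 3.74% ± 1.33 at 10 weeks, and were higher at 20 weeks in 2 of 114 fish. The 5 transcripts of group C, with krt5 and JUP, held 20.5% ± 4.81 at 20 weeks, against 21.5% ± 3.18 at 10 weeks. The 100 genes that follow in rank held 6.76% at 20 weeks and 6.53% at 10 weeks. Shares of a library add up to a fixed total, so a larger share of one group is a smaller share of others.

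**Figure D1:**
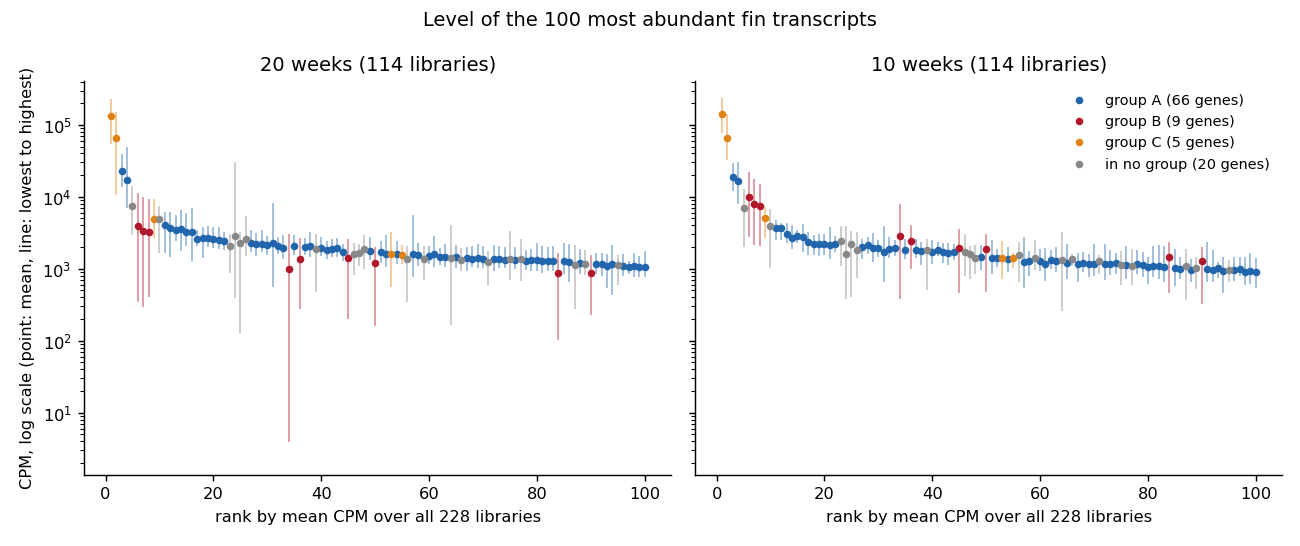
Mean CPM of each of the 100 transcripts (points, log scale) against its rank by mean CPM over all 228 libraries, with lines from the lowest to the highest library, at 20 weeks (left) and 10 weeks (right), coloured by the groups that vary together. At 20 weeks the genes of group B lie below their neighbours in rank, and Nfu_g_1_015191 at rank 34 reaches down to 3.91 CPM in 1 library.

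The share of the 100 transcripts differed little between the runs, with 42.9 against 42.1%, 40.9 against 43.2% and 42.2 against 43.02% at 20 against 10 weeks in fish 1 to 50, 51 to 84 and 85 onward, in that order. That of group B differed most as a ratio. It was 1.87 against 3.35%, 0.729 against 2.76% and 2.55 against 5.37% in the 3 runs, so that fish 51 to 84, the run with the lowest median age at death, had the lowest share at 20 weeks. Group A was 14.9 against 14.1%, 18.99 against 14.5% and 13.3 against 12.1% in the same order, and its largest difference between the ages fell in fish 51 to 84. The libraries of that run at 20 weeks also held less krt5, 10.8% ± 2.88 at 20 weeks, against 14.4% ± 2.22 at 10 weeks, higher at 20 weeks in 1 of 34 fish.

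**Figure D2:**
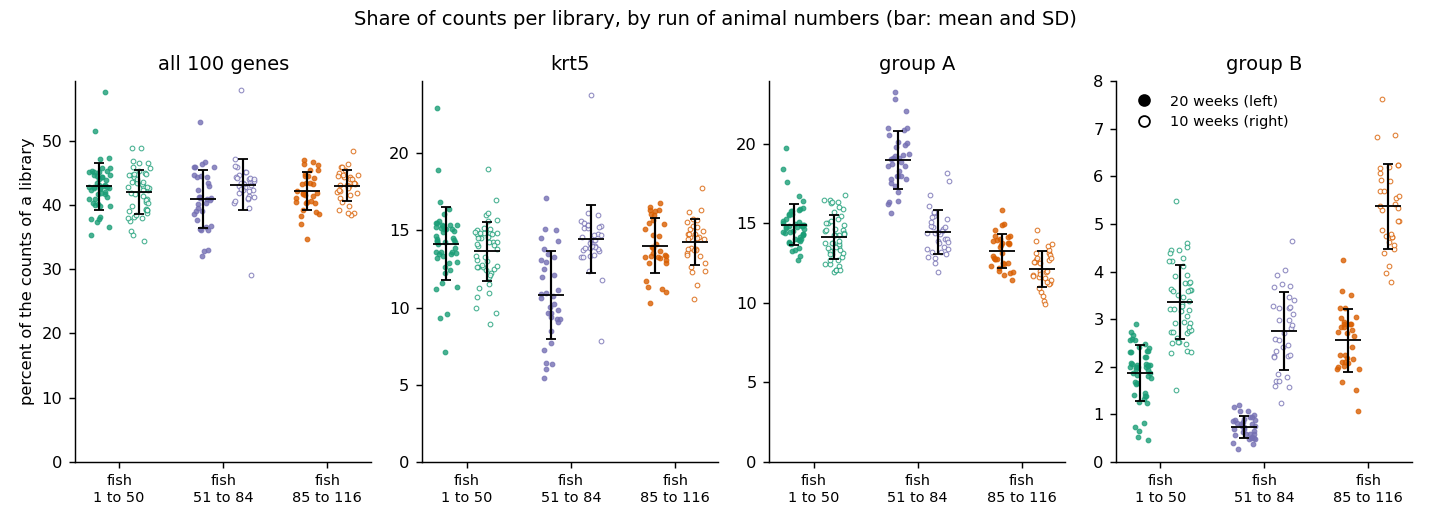
Percent of the counts of each library held by all 100 genes, by krt5, by group A (66 genes) and by group B (9 genes), for each run of animal numbers, with the 20-week libraries (filled) left of the 10-week libraries (open) and bars for mean and SD. Fish 51 to 84 show the highest 20-week shares of group A and the lowest of group B, while the mean share of all 100 genes lies between 40.9 and 43.2% in every run at both ages.

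Between 20 and 10 weeks, 70 of the 100 transcripts rose and 15 fell (edgeR's quasi-likelihood test with the fish as block, Benjamini-Hochberg adjusted p under 0.05 over 17116 genes). Of all genes tested, 32% rose and 29.5% fell. The median log2 fold change of the 100 was 0.18, against 0.00 over all genes tested, and 0.19 without TMM factors. Most changes were small. In group A 60 of 66 rose and 0 fell, with a median of 0.21, whereas in group B 9 of 9 fell, with a median of -0.94. The rule averaged both ages, so a gene could enter through a high level at a single age. These counts of rises and falls are therefore a description. In group C 2 rose and 1 fell of 5, and of the 20 transcripts outside the groups 8 rose and 5 fell. Of the lists of genes, the ribosomal proteins rose in 36 of 38 cases, the translation factors in 4 of 6, and the genes of the actin and myosin cytoskeleton in 3 of 5, with 0 falling in each. Of the 3 keratins 2 fell, and of the 4 collagens and matrix genes 3 fell. Dropping TMM factors left 72 rises and 16 falls, for which the shares of all genes are not given here.

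The most abundant transcript was krt5, which codes for a type II keratin known in mammals from the basal layer of the epidermis. It had 54485, 135101 and 229343 CPM at 20 weeks, against 78059, 142588 and 237702 CPM at 10 weeks (lowest, median and highest of 114 libraries each). It therefore held between 5.45% and 23.8% of the counts of every library, and the 2 ages overlapped widely. Its mean was 131133 ± 28113 CPM at 20 weeks and 140529 ± 19217 CPM at 10 weeks (SD), it was higher at 20 weeks in 44 of 114 fish, and its log2 fold change was -0.12 ± 0.05 (SE, adjusted p = 0.016). The decrease was carried by fish 51 to 84, where the median was 106505 CPM at 20 weeks against 143709 CPM at 10 weeks (log2 fold change -0.47 ± 0.09, adjusted p = 3.2e-05). In fish 1 to 50 the log2 fold change was 0.08 ± 0.06 (adjusted p = 0.34) and in fish 85 onward -0.08 ± 0.06 (adjusted p = 0.24), neither of which passed the test.

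Nfu_g_1_006862, for which the tables of the study give no name, followed at rank 2 with 10579.6, 69438 and 151342 CPM at 20 weeks, against 32509, 66082 and 142112 CPM at 10 weeks. It exceeded 5% of counts in 199 of 228 libraries. Its log2 fold change over all fish did not pass the test (-0.06 ± 0.06, adjusted p = 0.43), but by run it was 0.16, -0.63 and 0.19. It fell in fish 51 to 84 (adjusted p = 3.1e-05) and rose in fish 85 onward (adjusted p = 0.0092). Together krt5 and Nfu_g_1_006862 held 19.7% of counts at 20 weeks and 20.7% at 10 weeks.

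The keratin KRT23 (5 of 15), named for its human counterpart and one of a family of similar copies in this genome, had 7020.0, 16106 and 49213 CPM at 20 weeks, against 7855, 15664 and 30354 CPM at 10 weeks. Over all fish its change did not pass the test (log2 fold change 0.02 ± 0.06, adjusted p = 0.8). The runs differed, with a rise of 0.38 in fish 51 to 84 (adjusted p = 0.001) and a log2 fold change of -0.44 in fish 85 onward (adjusted p = 5.1e-06). KRT23 (6 of 15) fell slightly (log2 fold change -0.11 ± 0.04, adjusted p = 0.018). Reads from near-identical keratin or actin copies may be divided between them, and without strand information reads of overlapping genes cannot be separated, so the values of such genes are uncertain to that extent.

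JUP, plakoglobin of desmosomes and adherens junctions, rose by 0.13 ± 0.03 on the log2 scale (adjusted p = 7.7e-06), with 1171, 1537 and 2169 CPM at 20 weeks, against 1028, 1419 and 1651 CPM at 10 weeks. The ages overlapped, and the log2 fold change was 0.25 in fish 1 to 50 and -0.00 and 0.08 in the other runs. anxa1a, an annexin listed here with the keratinocyte markers, fell (log2 fold change -0.24 ± 0.04, adjusted p = 1.9e-08, higher at 20 weeks in 26 of 114 fish). Its median was 2042 CPM at 20 weeks against 2994 CPM at 10 weeks in fish 85 onward, where it was lower at 20 weeks in all 32 fish. col17a1b, a transmembrane collagen of the hemidesmosomes by which basal keratinocytes hold on to the basement membrane, had a median of 2302 CPM at 20 weeks, against 2244 CPM at 10 weeks (log2 fold change -0.00 ± 0.06, adjusted p = 1). Nfu_g_1_002550, the remaining member of group C with a change past the test, was 1196 CPM at 20 weeks against 1603 CPM at 10 weeks in fish 51 to 84 and 1931 CPM at 20 weeks against 1187 CPM at 10 weeks in fish 85 onward, with log2 fold changes of -0.51 and 0.70. It was higher at 20 weeks in 1 of 34 fish of the one run and in 32 of 32 of the other.

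Among the cytoskeletal genes, actb1, a cytoplasmic beta-actin, had 13753, 20398 and 39689.9 CPM at 20 weeks, against 12064, 18718 and 29952 CPM at 10 weeks. The level at 20 weeks was the higher one in 76 of 114 fish, a rise of 0.22 ± 0.03 on the log2 scale (adjusted p = 3.7e-08). The median was 30307 CPM at 20 weeks against 21082 CPM at 10 weeks in fish 51 to 84, higher in 33 of 34 fish, and 17542 CPM at 20 weeks against 17946 CPM at 10 weeks in fish 85 onward, higher in 13 of 32 fish. ACTBL2, an actin named for its human counterpart, had 2930.3, 7428 and 14268 CPM at 20 weeks, against 1993, 6839.5 and 12934 CPM at 10 weeks. Over all fish it did not pass the test (log2 fold change 0.10 ± 0.06, adjusted p = 0.11), but it rose by 0.61 in fish 51 to 84 and fell by 0.43 in fish 85 onward on the log2 scale (adjusted p = 3e-09 and 3.5e-09). The filamin flncb, which crosslinks actin filaments, rose by 0.30 ± 0.03 and MYH9, a nonmuscle myosin heavy chain, by 0.27 ± 0.02 on the log2 scale (adjusted p = 1.3e-12 and 1.5e-17). AHNAK2, a large scaffold protein named for its human counterpart, had a median of 1787 CPM at 20 weeks, against 1397 CPM at 10 weeks. It rose by 0.37 ± 0.04 (adjusted p = 5.9e-16), in 94 of 114 fish.

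The transcripts of protein synthesis formed the largest block. The 38 ribosomal proteins held 6.49% ± 0.875 at 20 weeks, against 5.63% ± 0.717 at 10 weeks, higher at 20 weeks in 98 of 114 fish. RPS6, a protein of the small ribosomal subunit and a target of S6 kinase, had 2006, 2537 and 3901 CPM at 20 weeks, against 1494, 2229.8 and 3059.6 CPM at 10 weeks. The ranges overlapped, but RPS6 was higher at 20 weeks in 100 of 114 fish and rose by 0.26 ± 0.03 on the log2 scale (adjusted p = 1.4e-15). The rise was 0.13, 0.40 and 0.28 in fish 1 to 50, 51 to 84 and 85 onward. rps2, rps3, RPL6 and rpl5b, of the small and the large subunit, rose by 0.18, 0.21, 0.16 and 0.18 on the log2 scale, and the largest rise of the list was 0.36 for rps25 (lower in 12 of 114 fish). RPL3 and rplp0 were the exceptions, with log2 fold changes of 0.05 and -0.02 that did not pass the test (adjusted p = 0.057 and 0.48).

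Translation factors were less uniform. PABPC1, the cytoplasmic poly(A)-binding protein, had 1742, 3222 and 6558 CPM at 20 weeks, against 1894, 2659.6 and 4013 CPM at 10 weeks, was lower at 20 weeks in 13 of 114 fish and rose by 0.37 ± 0.03 (log2 scale, adjusted p = 3.9e-23). eef1a1l1, an elongation factor that brings aminoacyl-tRNA to the ribosome, rose by 0.15 ± 0.02 (adjusted p = 9.4e-09). For eef2b, the elongation factor of translocation, the log2 fold change was -0.00 ± 0.02 (adjusted p = 0.98), and for eef1g -0.01 ± 0.02 (adjusted p = 0.68). NACA2, the alpha subunit of the complex that binds nascent chains at the ribosome, had 1062, 1504 and 2814 CPM at 20 weeks, against 676, 1204 and 1910.4 CPM at 10 weeks and was lower at 20 weeks in 5 of 114 fish, with a rise of 0.43 ± 0.03 (adjusted p = 2.9e-26). DDX21, an RNA helicase of the nucleolus, rose by 0.34 ± 0.03 (adjusted p = 6.8e-16). zgc:56530 rose by 0.38 ± 0.05 and Nfu_g_1_001117 by 0.22 ± 0.03 (adjusted p = 1.9e-11 and 2.9e-13).

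The largest changes were the falls of group B. SPARC, a secreted glycoprotein that binds collagen and calcium, had 272, 1484 and 2649 CPM at 20 weeks, against 1004, 2513 and 4043 CPM at 10 weeks. It was lower at 20 weeks in all 114 fish, and its log2 fold change was -0.94 ± 0.05 (adjusted p = 2e-34). Its median was 1694 CPM at 20 weeks against 2543 CPM at 10 weeks in fish 1 to 50, 684 CPM at 20 weeks against 1811 CPM at 10 weeks in fish 51 to 84 and 1719 CPM at 20 weeks against 2840.3 CPM at 10 weeks in fish 85 onward. In fish 51 to 84 the ranges of the 2 ages hardly touched, with a highest value of 1018 CPM at 20 weeks and a lowest of 1004 CPM at 10 weeks. postnb, a periostin of the matricellular proteins, and col6a3, a chain of collagen VI, had log2 fold changes of -0.52 ± 0.05 and -0.62 ± 0.04 (adjusted p = 3.1e-17 and 3.7e-25), each higher at 20 weeks in 8 of 114 fish.

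The other 6 genes of group B carry no name, among them 3 of the 10 most abundant transcripts. Nfu_g_1_018490 had 342, 4015 and 11184 CPM at 20 weeks, against 2765, 9348 and 21993 CPM at 10 weeks. It was higher at 20 weeks in 2 of 114 fish and its log2 fold change was -1.59 ± 0.09 (adjusted p = 1.7e-31). Nfu_g_1_023149 and Nfu_g_1_013298 followed it, with log2 fold changes of -1.51 ± 0.09 and -1.42 ± 0.09 (adjusted p = 1.6e-28 and 6.1e-30). Nfu_g_1_015191 showed the largest change of the 100, with 3.91, 1109.5 and 3072 CPM at 20 weeks, against 381, 2485 and 7841 CPM at 10 weeks, a log2 fold change of -2.05 ± 0.17 (adjusted p = 2.9e-20). Its ratio of the highest to the lowest library was 2004, against a median of 2.78 for the genes of group A. In fish 51 to 84 its lowest, median and highest values were 3.91, 129 and 589 CPM at 20 weeks, against 381, 1748 and 3323 CPM at 10 weeks, while its medians were 1247 CPM at 20 weeks against 2471 CPM at 10 weeks in fish 1 to 50 and 1672 CPM at 20 weeks against 4804 CPM at 10 weeks in fish 85 onward. Its rank of 34 therefore rests mainly on the 10-week libraries. Nfu_g_1_017640 and Nfu_g_1_015341 had log2 fold changes of -0.82 ± 0.05 and -0.67 ± 0.05 (adjusted p = 1.2e-26 and 1.5e-23).

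Outside the groups, 2 genes rose by more than 0.5 on the log2 scale. apoeb, one of the fish apolipoproteins E, had 1514, 2544 and 5383 CPM at 20 weeks, against 749.5, 1737 and 3255 CPM at 10 weeks. It rose by 0.53 ± 0.04 (adjusted p = 4.1e-25), was lower at 20 weeks in 11 of 114 fish, and rose in every run, by 0.41, 0.45 and 0.79. Nfu_g_1_014183 had 391, 2331 and 30054 CPM at 20 weeks, against 380.3, 1585 and 3970.2 CPM at 10 weeks, and its highest value, in fish FC61 at 20 weeks, stood far above the highest of the other runs at that age (7904 and 3713 CPM). It rose by 0.70 ± 0.09 over all fish (adjusted p = 1.6e-10), by 0.80 and 1.27 in fish 1 to 50 and 51 to 84, and had a log2 fold change of -0.05 in fish 85 onward (adjusted p = 0.63). Of the remaining genes among the 10 most abundant, Nfu_g_1_015969 rose by 0.29 ± 0.03 (adjusted p = 1.7e-12), by a like amount in each run, and Nfu_g_1_024908 did not pass the test (log2 fold change -0.03 ± 0.03, adjusted p = 0.43).

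**Figure D3:**
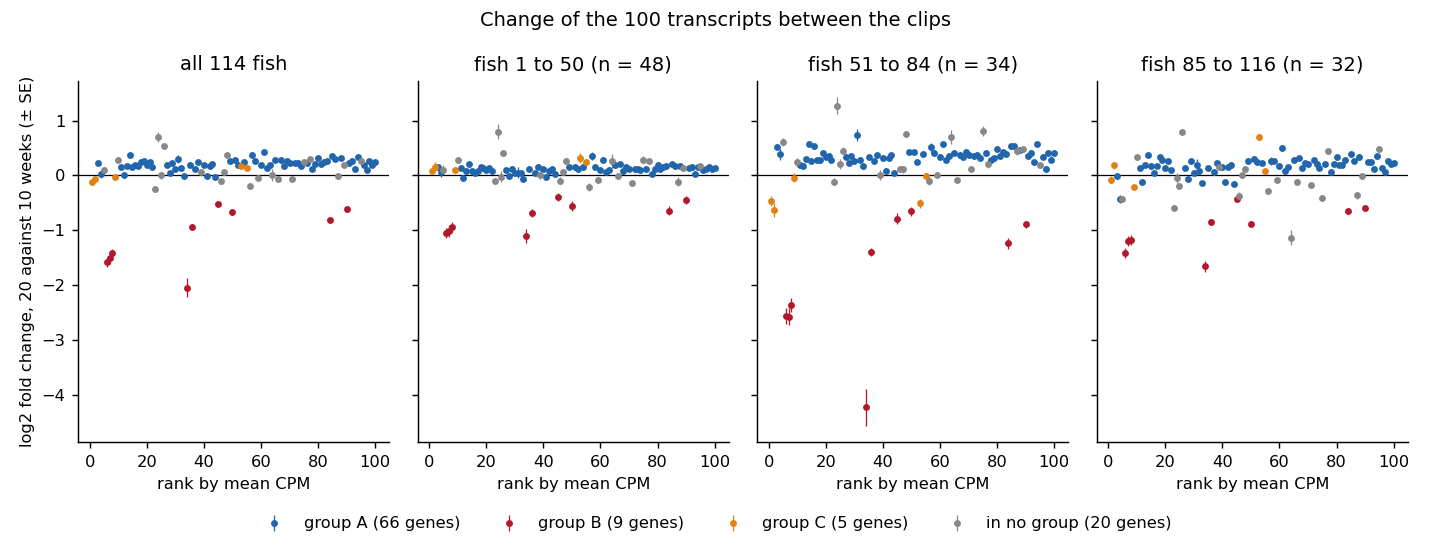
Log2 fold change at 20 against 10 weeks (points, with SE) of each of the 100 transcripts against its rank by mean CPM, over all 114 fish and in each run of animal numbers, coloured by group. Group A lies mostly above 0 in every panel and group B below 0 in every panel, with the largest falls in fish 51 to 84, where Nfu_g_1_015191 reaches -4.23.

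Run by run, 52 transcripts rose and 11 fell in fish 1 to 50 (13.7% and 13.7% of all genes tested), 78 rose and 13 fell in fish 51 to 84 (36.5% and 35.4%), and 61 rose and 25 fell in fish 85 onward (37.7% and 34.7%). In each of the 3 runs, 45 transcripts rose and 9 fell, against 3.91% and 3.96% of all genes, and the 9 were those of group B. The change differed between the runs for 91 of the 100 transcripts (limma, F test on the differences within fish, adjusted p under 0.05), against 82.8% of all genes. For 12 transcripts it even had opposite signs past the test in different runs, among them Nfu_g_1_006862, KRT23 (5 of 15), ACTBL2, eef2b, col17a1b and rplp0. The corresponding share of all genes was 29.6%. The runs were set apart by the likeness of libraries in these same data, so these counts of differences between runs are a description. A change over all fish is thus an average over runs that differ. For 81 transcripts it was called in the same direction in every alternative that used fish of all runs. The corresponding share of all genes is not given here, so this count does not set the 100 apart from other genes.

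Next, the covariation of the 100 transcripts over fish was described. Over the 114 fish of an age, pairs of these transcripts had a median correlation of log2 CPM of 0.43 at 20 weeks and 0.39 at 10 weeks, and 47.1% and 42.1% of pairs exceeded 0.5. Between the next 100 genes in rank the median was 0.16 at 20 weeks and 0.12 at 10 weeks, and between all genes tested -0.005 at both ages. With the means of the runs removed the medians of the 100 were 0.34 and 0.47. Fish of one age share the sequencing scale and the run, and transcripts of one library share its composition, so these values are a description. With the age means removed, average linkage placed 80 transcripts in 3 groups of at least 5 genes, A (66 genes), B (9 genes) and C (5 genes), and left 20 outside.

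**Figure D4:**
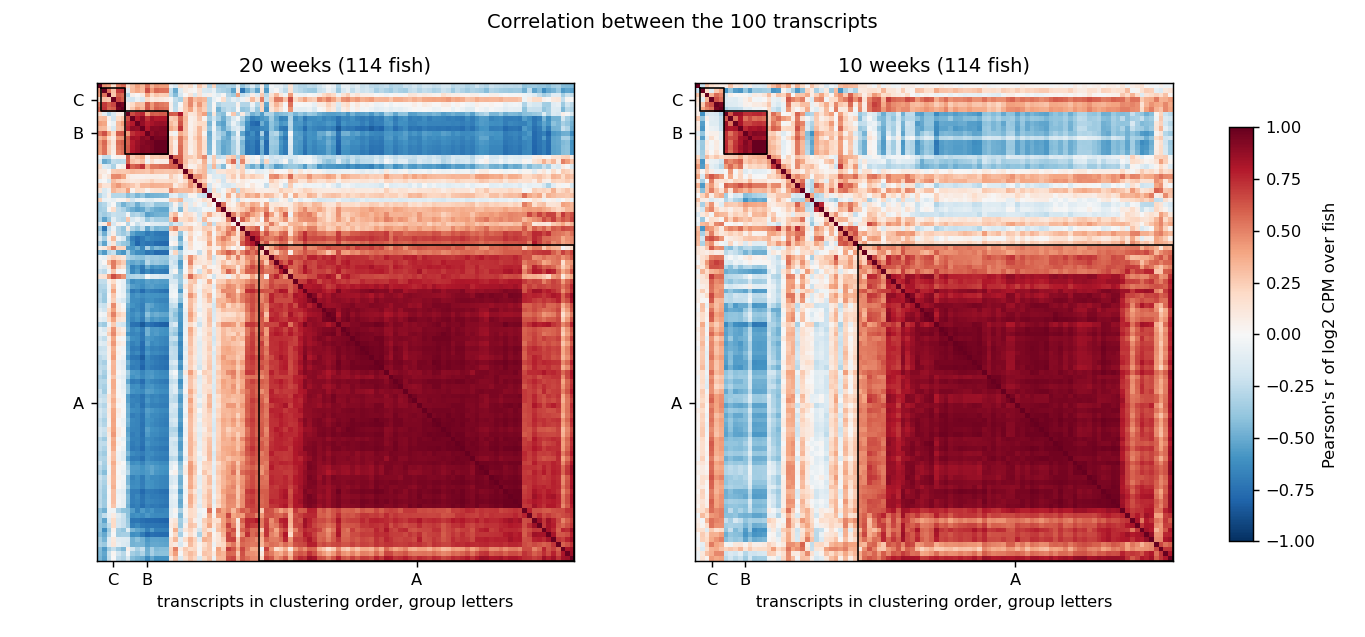
Pearson's r of log2 CPM over fish for each pair of the 100 transcripts, at 20 weeks (left, 114 fish) and 10 weeks (right, 114 fish), both in the order of one clustering with groups A, B and C boxed. The large block of group A is red at both ages, and the band between groups A and B is blue, more deeply at 20 weeks.

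Within group A the median correlation at 20 weeks was 0.82. The ribosomal proteins were its core, as RPS6 had a correlation of 0.98 with rpl5b at 20 weeks and 0.97 at 10 weeks, and the same with rps3. Within group B it was 0.86. Nfu_g_1_018490 and Nfu_g_1_023149 were almost interchangeable, with r = 0.996 at 20 weeks and 0.993 at 10 weeks, and Nfu_g_1_018490 followed SPARC with r = 0.95 and 0.86. Within group C it was 0.61, with krt5 and Nfu_g_1_006862 at 0.95 at both ages and at 0.95, 0.93 and 0.97 in the 3 runs at 20 weeks.

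Groups A and B moved against each other. Over the libraries of both ages with the age means removed, the median correlation of a gene of A with a gene of B was -0.53, and it was -0.27 with the means of the runs removed as well. The mean log2 CPM of the 2 groups had r = -0.74 over fish at 20 weeks and -0.51 at 10 weeks, with -0.67, -0.30 and -0.16 within the runs at 20 weeks and -0.18, -0.37 and -0.14 at 10 weeks. Part of the pooled value thus lay between the runs. For actb1 and Nfu_g_1_018490, r was -0.79 at 20 weeks (-0.48, -0.22 and -0.38 within the runs) and -0.35 at 10 weeks. Groups A and C had r = -0.05 over all fish at 20 weeks, whereas within the runs it was 0.41, 0.39 and 0.38, and 0.51 over all fish at 10 weeks. The pooled value at 20 weeks therefore differed from that within every run, and fish 51 to 84 combined the highest level of A with the lowest of C.

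Differences between runs made up a large part of the variance of these transcripts. The runs were set apart by the likeness of libraries in these same data, so the following shares are a description. The median share of variance that lay between the 3 runs was 40.7% at 20 weeks and 23.7% at 10 weeks, against 15.2% and 9.93% over all genes. It was 66.9% and 51.8% for group B, 42.8% and 26.3% for group A and 19.3% and 7.52% for group C. The median coefficient of variation of CPM was 16.6% at 20 weeks and 15.9% at 10 weeks. The median SD of log2 CPM was 0.26 at 20 weeks and 0.26 at 10 weeks, against 0.43 and 0.39 over all genes. At the median of the 100, the larger share between runs is thus a share of a smaller variance. Group B differed in this, as its mean log2 CPM had an SD of 0.89 at 20 weeks and 0.46 at 10 weeks. The SD of log2 CPM was larger at 20 weeks for 74 of the 100, while this held for 68% of all genes. Between the clips of a fish at 20 and 10 weeks the median correlation over fish was 0.345 for the 100 transcripts and 0.10 for all genes. For the mean log2 CPM of each group it was 0.36 for A, 0.62 for B and -0.05 for C over all fish. Within the runs it was 0.07, 0.07 and 0.16 for A, 0.25, 0.25 and 0.21 for B and 0.09, 0.14 and -0.03 for C, below the pooled value in every run for A and B. In fish 85 onward, 9 of the 32 fish had clips that did not match each other. No values without these fish are given, so the pairing behind that run is uncertain.

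Markers of cell types were examined beside these groups, by their summed CPM per library. Keratinocyte markers (8 genes, krt5 included, of which 4 rose and 2 fell) ranged from 58080 to 231352 CPM at 20 weeks and from 81277 to 239308 CPM at 10 weeks, so every library held the epidermis that the label fin clip implies. At 20 weeks their sum, most of which is krt5, a member of group C, had r = 0.95 with group C and 0.64 with group B, and 0.11, 0.66 and 0.48 with B within the runs. With group A this sum had r = -0.20 over all fish and 0.22, 0.24 and 0.43 within the runs. Of the osteoblast and fibroblast list, SPARC alone had a match and is itself in group B, and the collagen I genes of that list were not analysed here. Red blood cell markers (8 genes, of which 2 fell) ranged from 10.2 to 194 CPM at 20 weeks and from 18.6 to 825 CPM at 10 weeks, and 3 of them had a median of 0 CPM. At 20 weeks they had r = 0.56 with group B (0.19, 0.56 and -0.05 within the runs) and -0.48 with group A (-0.19, -0.44 and -0.06). Markers of nerve and glia (6 genes, of which 3 fell) ranged from 21.1 to 344 CPM and from 53.7 to 380 CPM, with r = 0.79 with group C at 20 weeks (0.81, 0.79 and 0.16 within the runs) and 0.50 with group B (-0.15, 0.46 and 0.21). Leukocyte markers (3 genes, of which 2 rose) ranged from 132 to 1624 CPM at 20 weeks and from 149 to 2153 CPM at 10 weeks. Their sum was mostly b2ml, with medians over all libraries of 213 CPM for b2ml, 48.9 CPM for coro1a and 34.2 CPM for B2M. PTPRC, CD74 and LCP1 of that list had no match, and whether the sum follows leukocytes was not tested. The mucous cell marker agr2 ranged from 2.61 to 383 CPM and from 6.38 to 200 CPM, and the muscle marker MYLPF from 0 to 2.88 CPM and from 0 to 440 CPM. At 20 weeks r with groups A, B and C was -0.09, -0.25 and -0.23 for the leukocyte markers and -0.38, 0.24 and -0.12 for agr2. Within the runs the leukocyte markers had r = -0.16, -0.33 and -0.25 with A, -0.25, -0.20 and -0.49 with B and -0.17, -0.10 and -0.61 with C. For agr2 it was -0.28, -0.03 and -0.30 with A, 0.001, 0.16 and -0.33 with B and -0.37, -0.16 and -0.27 with C. The part of any of these cell types in the changes of the groups was not tested.

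The relation to age at death was examined with the same 3 groups. At 20 weeks the share of all 100 transcripts had r = 0.24 (Spearman's rho = 0.24, over the 114 fish less the 1 of unknown lifespan) with the age at death, and at 10 weeks r = 0.06 (rho = 0.03). The parts were related more closely than the whole, and in opposite directions. The share of group A at 20 weeks had r = -0.57 (rho = -0.57) with the age at death, that of the 38 ribosomal proteins r = -0.53 (rho = -0.52), that of group B r = 0.57 (rho = 0.57) and that of group C r = 0.45 (rho = 0.42). Fish with a larger share of group A thus tended to die earlier, and fish with a larger share of B or C later. The share of the 100 genes that follow in rank had r = -0.53 (rho = -0.51) at 20 weeks. That set includes the ribosomal protein rps13 and was not cleared of other ribosomal proteins or of genes that vary with group A. It therefore cannot show whether a negative relation of this size is particular to group A or to the ribosomal proteins, which was not tested. At 10 weeks r was -0.26 for A, -0.21 for the ribosomal proteins, 0.33 for B and 0.03 for C. Without the 2 fish farthest from the median share, r at 20 weeks was -0.55 for A, 0.55 for B and 0.45 for C.

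Within the runs, where the differences in lifespan between runs play no part, these correlations at 20 weeks were weaker. In fish 1 to 50, 51 to 84 and 85 onward, r at 20 weeks was -0.43, -0.15 and -0.25 for group A, 0.19, 0.40 and 0.36 for group B and 0.36, 0.32 and 0.13 for group C. Spearman's rho was lower in several cases, with -0.25, -0.15 and -0.08 for A, 0.21, 0.48 and 0.17 for B and 0.26, 0.40 and 0.01 for C. For the ribosomal proteins at 20 weeks r was -0.34, -0.25 and -0.10 within the runs. Their rho was -0.20, -0.19 and 0.08, so its sign changed in fish 85 onward. At 10 weeks r within the runs was -0.14, 0.14 and 0.12 for A, -0.12, 0.10 and 0.10 for the ribosomal proteins, 0.02, 0.02 and -0.30 for B and -0.01, 0.10 and 0.39 for C, and rho was -0.09, 0.23 and 0.19 for A, -0.15, 0.13 and 0.15 for the ribosomal proteins, -0.09, -0.02 and -0.40 for B and 0.02, -0.09 and 0.40 for C. For the shares of the groups at 20 weeks the sign was thus the same in the 3 runs. At 10 weeks the pooled negative value of A and the pooled positive value of B were not shared by every run. For krt5 at 20 weeks, r was 0.42 (rho = 0.38) over all fish and 0.32, 0.32 and 0.10 (rho = 0.23, 0.39 and -0.01) within the runs. For the 100 transcripts together it was 0.25, 0.26 and 0.10 (rho = 0.12, 0.32 and 0.03). With the mean log2 CPM of a group at 20 weeks in place of its share, r was -0.46 for A, 0.57 for B and 0.43 for C over all fish. Within the runs it was -0.19, -0.07 and -0.11 for A, 0.20, 0.46 and 0.38 for B and 0.39, 0.32 and 0.14 for C. For A rho was then -0.16, 0.006 and -0.10, so its sign was not shared by every run, while rho was positive in every run for B and C.

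**Figure D5:**
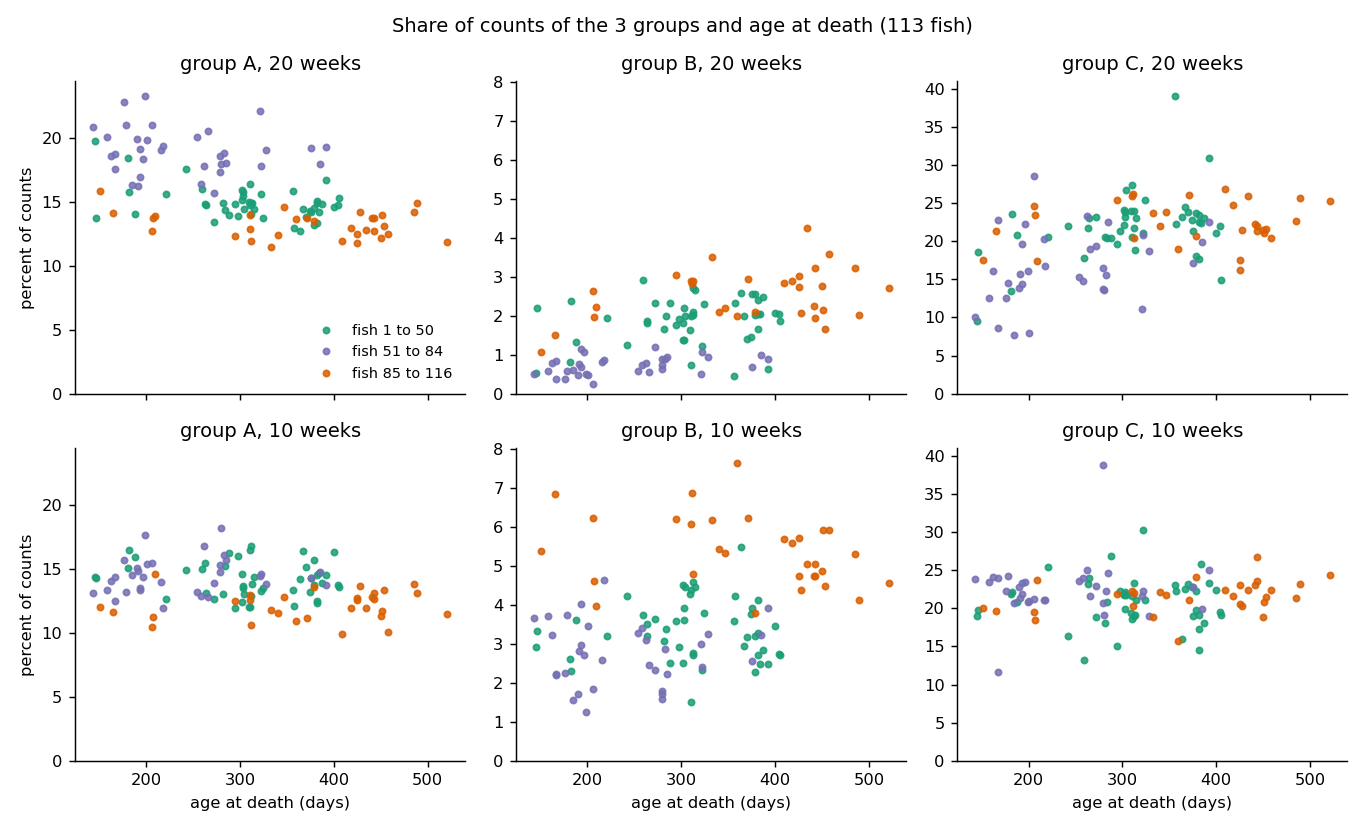
Share of counts of groups A, B and C (y axis, percent) against the age at death (x axis, days), with 1 point per fish, at 20 weeks (upper row) and 10 weeks (lower row), coloured by run of animal numbers. At 20 weeks the fish 51 to 84 lie high in group A, low in group B and to the left on the axis of age at death. The correlation with the age at death at 20 weeks is weaker within each colour than over all fish.

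Gene by gene, a Cox proportional hazards model related the level or its change to mortality, with a hazard ratio above 1 for a gene whose doubling goes with a higher death rate (adjusted p under 0.05 over 17116 genes). For the level at 20 weeks, 72 of the 100 transcripts went with a higher and 13 with a lower risk, against 20.8% and 23.1% of all genes. The higher-risk genes included 65 of 66 of group A and 38 of 38 ribosomal proteins, and the lower-risk genes 8 of 9 of group B and 4 of 5 of group C. Because the groups were formed from covariation over these same fish (median r of 0.82 within A at 20 weeks), their genes share most of any relation to lifespan. Calls within a group are therefore not independent, and counts by group are a description. For the log2 change between the clips, 30 went with a higher and 9 with a lower risk (24.3% and 25.1% of all genes), among them 20 of group A with a higher and 7 of group B with a lower risk. The count of 30 was 19 when fish with a death by week 24 were left out. For the level at 10 weeks the counts were 28 and 15 (11.6% and 13.7% of all genes), with 27 of group A and 9 of group B. The count of 28 was 55 with column totals alone and 13 without the 11 unmatched fish. Shares of all genes under these alternatives are not given here.

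With the 3 runs as strata, which compares fish only within a run, none of these calls remained. Of the 100, 0 were then called in either direction in any of the 3 models. Over all genes 0.134% went with a higher and 0.257% with a lower risk in the model of the 20-week level, and 0% in the others. At an unadjusted p under 0.05 with the runs as strata, 11 of the 100 passed in the model of the 20-week level, 5 in that of the change and 0 in that of the 10-week level, against 14.1%, 7.78% and 1.72% of all genes. The shares of the 100 lie near or below those of all genes. By group, the 5 that passed for the change were all among the 9 of group B, and those of the 20-week level were 2 of 66 in group A, 4 of 9 in group B, 3 of 5 in group C and 2 of the 20 outside. Genes of a group vary together by construction, so these counts are a description and not independent results.

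Nfu_g_1_015191 stood closest to a call within runs. Its hazard ratio for a doubling of the level at 20 weeks was 0.71 (95% interval 0.64 to 0.77, with an adjusted p of 5.1e-10) over all fish. Stratified by run it was 0.73 (95% interval 0.61 to 0.86, with an adjusted p of 0.054), and it was 0.61, 0.75 and 0.75 in the single runs. For its change the ratio was 0.70 (95% interval 0.62 to 0.78, with an adjusted p of 8.3e-08) and, with strata, 0.69 (95% interval 0.58 to 0.83, with an adjusted p of 0.1). A higher level of this transcript, or a smaller fall, went with a lower death rate in each run. For Nfu_g_1_018490 the ratio of the level at 20 weeks was 0.48 (95% interval 0.39 to 0.58, with an adjusted p of 5.1e-10), and with strata 0.58 (95% interval 0.41 to 0.81, with an adjusted p of 0.099).

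Among the genes with a higher risk at a higher level at 20 weeks, Nfu_g_1_005834 had the lowest p. Its level was 819.9, 1110.3 and 1842 CPM at 20 weeks, against 522, 1008 and 1469 CPM at 10 weeks, a narrow range in which a doubling is a large step, and its hazard ratio was 19.84 (95% interval 8.23 to 47.79, with an adjusted p of 7.6e-09). With strata it was 5.94 (95% interval 1.97 to 17.91, with an adjusted p of 0.1), above 1 in each run (3.25, 9.58 and 17.59). With strata none of Nfu_g_1_005834, DDX21, NACA2 and actb1 was called. For DDX21, NACA2 and actb1 the hazard ratio was not above 1 in every run. The hazard ratio of DDX21 was 6.0 (95% interval 3.44 to 10.46, with an adjusted p of 3.2e-08) and with strata 2.24 (95% interval 0.88 to 5.66, with an adjusted p of 0.44). That of NACA2 was 6.38 (95% interval 3.37 to 12.07, with an adjusted p of 5.2e-07) and with strata 1.31 (95% interval 0.46 to 3.7, with an adjusted p of 0.85). That of actb1 was 4.21 (95% interval 2.54 to 6.97, with an adjusted p of 8.3e-07) and with strata 1.69 (95% interval 0.71 to 4.0, with an adjusted p of 0.62), with 2.64, 0.77 and 1.55 in the single runs.

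For krt5, a higher level at 20 weeks went with a lower risk over all fish, the ratio being 0.40 (95% interval 0.24 to 0.69, with an adjusted p of 0.0035), and with strata it was 0.65 (95% interval 0.38 to 1.11, with an adjusted p of 0.49). For the change between the clips, ACTBL2, Nfu_g_1_018535, Nfu_g_1_005834 and AHNAK2 had the lowest p in the direction of higher risk. Their ratios over all fish were 2.48, 2.66, 6.45 and 4.02, and with strata 1.41, 1.39, 2.03 and 1.5, in the same order. Adjusted p with strata lay between 0.71 and 0.8. The changes of ACTBL2 and Nfu_g_1_018535 were also among those with opposite signs in different runs, and Nfu_g_1_018535 had a median of 1837 CPM at 20 weeks against 1002 CPM at 10 weeks in fish 51 to 84 and 1011 CPM at 20 weeks against 1264 CPM at 10 weeks in fish 85 onward.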

How the data were processed

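The 228 libraries had been prepared by the TruSeq RNA v2 protocol, so that reads carry no strand information. The authors deposited 1 table of read counts per gene, not normalized, which per the labels came from bcl2fastq 1.8.4, TopHat2 2.1.0 and featureCounts 1.5.0. The genome build of the longitudinal libraries is not given in the sources used here, and samples were paired by fish, as named in the labels. As a check, each clip was correlated with all clips of the other age over 300 genes, and 11 of 114 fish had neither clip matched to its own counterpart (median r of a matched pair 0.877, highest r of an unmatched pair 0.328).

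Members, gene lists and tests were chosen with earlier results of these data known. CPM used column totals. Genes were filtered with filterByExpr (17116 genes, 99.9% of counts), and TMM factors ranged from 0.639 to 1.17. The age comparison used edgeR 4.0.16 (R 4.3.3), quasi-likelihood test, with the fish as block, the dispersion trend being estimated on every 20th gene. The difference between runs used limma 3.58.1 on log2 CPM (prior count 1). Mortality used a Cox model per gene (survival 3.8.3, Wald test) on log2 counts normalized by DESeq2 1.42.0 size factors (pseudocount 1). All tests were two-sided with Benjamini-Hochberg adjustment at 0.05 over all tested genes, and were first tested on simulated data. Shares, correlations and groups (average linkage, divided at a height of 0.6) carry no test. Intervals and SE give the precision of an estimate over fish and not the range of values between fish. The age comparison over all runs was repeated under other scalings, filters, tools and selections of fish. The Cox models over all runs were repeated under other scalings, filters, strata and selections of fish. Single runs were fitted with the main settings alone.

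Genes were named by a fixed rule: the 10 highest in mean CPM, the 6 largest changes in each direction past the test, the 4 lowest p in each direction in the Cox models of the change and of the level at 20 weeks, the 4 most typical of each group, the 2 most abundant of each gene list, and any gene over 5% of a library. Members named beyond this rule were chosen after their values were seen. Gene names came from the tables of the study. Deposited fold changes were not used.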

Additional observations from a re-analysis of the deposited data

Results flagged for a closer look

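The change between the clips at 20 and 10 weeks differed between the 3 runs of animal numbers for 91 of the 100 transcripts (limma, F test between runs, adjusted p under 0.05), against 82.8% of all genes tested. The runs are not groups of the study. They were set apart by the likeness of libraries in these same data, so the count is a description. Their lifespans also differ, so that run and age at death cannot be told apart.

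Of the 100 transcripts, 12 rose past the test in 1 run and fell past it in another, against 29.6% of all genes. They were Nfu_g_1_006862, KRT23 (5 of 15), ACTBL2, eef2b, col17a1b, eef1g, rplp0, Nfu_g_1_002550, Nfu_g_1_021357, hdlbp, Nfu_g_1_018535 and Nfu_g_1_011468. Nfu_g_1_021357 showed the widest gap, with log2 fold changes of 0.27, 0.70 and -1.13 in fish 1 to 50, 51 to 84 and 85 onward.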

How the results depend on the processing

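Counts of age calls were stable to scaling, filter and tool. Between 70 and 72 transcripts rose and between 13 and 16 fell under DESeq2 size factors, column totals, no filter, limma, DESeq2 and without the unmatched fish or those with a TMM factor under 0.8. The matching shares of all genes are not given here. Without the fish as a replicate block, 70 rose and 13 fell, again without a matching share of all genes. The log2 fold change of Nfu_g_1_006862 then turned to 0.000719, which passed no test. Leaving out fish with a TMM factor under 0.8 turned KRT23 (5 of 15) to -0.0150, also without a call. In single runs more changed. In fish 85 onward alone 25 transcripts fell, and the log2 fold change was 0.19 for Nfu_g_1_006862, -0.0188 for actb1, -0.44 for KRT23 (5 of 15), -0.43 for ACTBL2 and -0.0498 for Nfu_g_1_014183. In fish 1 to 50 alone it was 0.0784 for krt5, 0.16 for Nfu_g_1_006862 and 0.0944 for Nfu_g_1_024908. The cause was not tested.

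The calls of the Cox models depended on the runs. With the 3 runs as strata, 0 transcripts were called in either direction in each of the 3 models, and likewise with strata under column totals, without the unmatched fish or without fish that died by week 24, alternatives chosen after seeing the data. With 4 equal ranges of animal numbers as strata, 0 went with a higher and 4 with a lower risk in the model of the change, 3 and 5 in that of the 20-week level, and 0 and 0 in that of the 10-week level. In single runs, also chosen after seeing the data, counts were 0 except for 1 transcript with a higher risk for the level at 20 weeks in fish 1 to 50. There, hazard ratios turned to 0.754 for the change of ACTBL2 in fish 85 onward, and for the level at 20 weeks to 0.766 for actb1 and 0.870 for DDX21 in fish 51 to 84 and 0.366 for NACA2 in fish 85 onward. Without strata, leaving out fish that died by week 24 gave 19 transcripts with a higher risk in the model of the change. In that of the 10-week level, column totals gave 55 with a higher risk and leaving out the unmatched fish 13. Shares of all genes for the 4 ranges, the single runs and these alternatives without strata are not given here. The cause was not tested.

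The 50 most abundant genes alone held 35.5% of counts at 20 weeks and 36.8% at 10 weeks. The median correlation at 10 weeks was 0.24 with column totals alone. Of 449 values for single genes, 313 kept their direction and their side of the threshold.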

Other observations

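Several members of group A that belong to no list of protein synthesis changed with it. They are named here after their values were seen. slc25a5, an ADP/ATP carrier of the inner mitochondrial membrane, had 2071, 3074 and 6031 CPM at 20 weeks, against 2261, 2839.7 and 3403 CPM at 10 weeks and rose by 0.16 ± 0.02 on the log2 scale (adjusted p = 1.2e-10). ybx1, a Y box RNA-binding protein, rose by 0.25 ± 0.02, and CCNG1, a cyclin G, by 0.30 ± 0.03 (adjusted p = 4e-17 and 8.2e-19). HSPA6, a chaperone of the Hsp70 family named for its human counterpart, rose by 0.20 ± 0.02, in 96 of 114 fish (adjusted p = 5.1e-12). gnb2l1, a scaffold protein of the small ribosomal subunit, rose by 0.12 ± 0.02 (adjusted p = 4.4e-06). ppiaa, a cyclophilin, was the steadiest of the 100, with 1281, 1680.5 and 2237 CPM at 20 weeks, against 1341, 1745 and 2239 CPM at 10 weeks, and a ratio of the highest to the lowest library of 1.75. Its log2 fold change of -0.02 ± 0.02 did not pass the test (adjusted p = 0.39).

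In 14 of the 100 transcripts the highest library exceeded the lowest more than 10-fold, and in 50 less than 3-fold. Nfu_g_1_014183 reached 79-fold, between FC61 at 20 weeks and FC70 at 10 weeks. FC61 at 20 weeks also held the highest value of ACTBL2, apoeb and Nfu_g_1_018535 and the lowest of Nfu_g_1_006862.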
